A study of Rattus norvegicus with 6 samples.

Results

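Heat shock proteins, their cofactors and the cytosolic chaperonin were followed across 3 libraries of RBL-2H3 cells treated with dihydrocoumarin (DHC) and 3 control libraries. The 37 genes were chosen by symbol, and 35 of them had a row among the 18286 genes of the expression table. Hspa1a and Hspb8 had no row under those symbols and were not analysed here. Of the 35 genes, 32 reached a mean of 1 RPKM (reads per kilobase of exon, scaled to the total of reads assigned to genes) over the 6 libraries and were tested. The name of the set as cytosolic does not hold for 4 members, since Hspd1, Hspe1, Hspa9 and Trap1 encode proteins of mitochondria, and Hsf1 and Hsf2 encode transcription factors.

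RBL-2H3 is a rat basophilic leukemia line used as a model of mast cells, and the study is about DHC, a lactone related to coumarin, and IgE-dependent activation. The DHC group carries the treatment label DHC, with neither dose nor duration in the labels, and the control group carries the treatment label none and is called untreated. All 6 samples share 1 written protocol, with IgE against dinitrophenyl at 50 ng/ml for 12 h and then the antigen DNP-HSA at 100 ng/ml for 4 h. Whether the control cells went through both steps is not said separately, so every value below compares DHC with control as labelled. Separate cultures are not stated for the replicates, so a p-value here reflects the spread among these 6 libraries and that spread may be technical.

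The libraries held 29190987 to 31299551 reads assigned to genes with DHC and 29084976 to 34170922 in control. All 7 listed markers of the mast cell line were detected, and their summed level was 691 to 716 RPKM in DHC libraries and 974 to 999 RPKM in control libraries, with Gata2, Kit and Hdc lower and Ms4a2 higher with DHC. Of the markers of other blood, stromal and epithelial cells, Cd3e (a T cell receptor subunit gene) averaged 41.8 RPKM with DHC and 34.6 RPKM in control, and the other 4 T cell markers stayed below 1 RPKM. Col3a1, a collagen gene, averaged 21.9 RPKM with DHC and 23.6 RPKM in control, with Col1a1 and Pdgfra below 1 RPKM. The sums of the B cell, macrophage and epithelial markers were at most 2.49 RPKM in any library. The part of these genes in the results below was not tested. Fewer cells of a type and less RNA per cell cannot be told apart in such bulk samples.

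Chaperones bind proteins that are not yet folded or have lost their fold. HSP70 proteins take up short greasy stretches of a client, J-domain proteins bring the client and trigger ATP hydrolysis, and HSP110 and BAG proteins release the nucleotide so that the client is let go. HSP90 acts later, on nearly folded kinases and receptors, and is steered by cochaperones, while the ring-shaped chaperonin TRiC encloses actin and tubulin. Kinases of the Src family, which act early on the path from the IgE receptor, include known HSP90 clients. Heat shock factor 1 binds repeats of the unit GAA in the promoters of many of these genes and raises them together when proteins unfold.

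The set did not move as 1 block with DHC. By limma's moderated test over all 10667 tested genes, 9 members rose and 3 fell at a Benjamini-Hochberg adjusted p below 0.05, and 20 did not pass. That is 37.5% of the 32 tested members, against 34.5% of all tested genes (18.4% higher and 16.1% lower), so the share of members that changed lay near the background. The median difference was 0.10 on the log2(RPKM + 1) scale for the members and 0.05 for all tested genes, and no member moved by more than 0.52. The 3 DHC and 3 control values did not overlap for 15 members (46.9%), against 49.7% of all tested genes. The members together took 2.68%, 2.88% and 2.89% of all gene reads in the DHC libraries and 2.55%, 2.65% and 2.73% in the control libraries, ranges that overlap.

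The count of members that rose depended on scaling and on which libraries were kept. With libraries scaled by trimmed means, 6 members rose and 4 fell, and over all genes the calls were 12% higher and 19.8% lower. Without DHC replicate 2, 5 members and 1195 genes in all rose instead of 9 and 1968. Without control replicate 2 or 3, 6 members rose (1355 and 1443 genes in all). Without DHC replicate 1 or 3, 7 rose (1697 and 1391), and without control replicate 1, 9 rose (1755). At an adjusted p below 0.01, 5 members rose (Ahsa1, Stip1, Hspd1, Dnaja1 and Hsph1) and 2 fell (Dnaja2 and Bag3), where 8.18% of all genes were higher and 10.1% lower by the same rule. These 7 passed the 0.05 threshold in each of 17 alternative fits. Of the other 5 members past the threshold, Dnajb1 passed in 15, Dnajb6 in 11, Hspa4l in 10, Hsp90aa1 in 9 and Hspe1 in 7 of them.

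**Figure D1:**
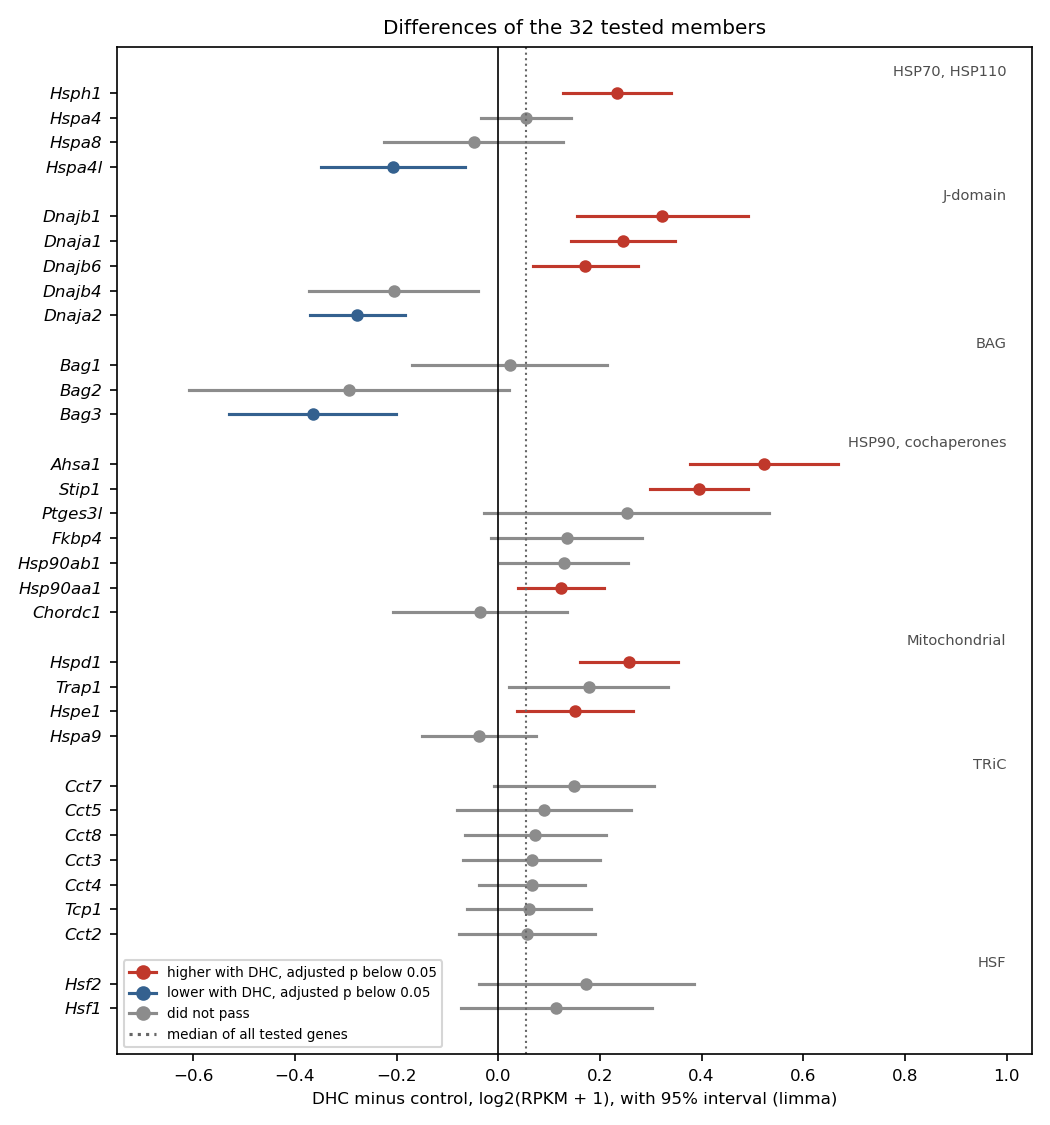
Difference between DHC and control for the 32 tested members on the log2(RPKM + 1) scale, with 95% intervals from limma, grouped by role. Red points passed as higher, blue points as lower and grey points did not pass, and the dotted line is the median of all tested genes at 0.05. The 12 members past the threshold are spread over 5 of the 7 groups, with Ahsa1 at 0.52 and Bag3 at −0.36 as the extremes of the 12.

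Promoter windows, of 250 bases before to 50 bases after the start of the gene, were found by symbol for 31 of the 37 members in RefSeq's annotation of the rat assembly GRCr8. They were searched for the heat shock element, in the form of 2 units (GAANNTTC or TTCNNGAA) or 3 units (GAANNTTCNNGAA or TTCNNGAANNTTC). Both strands are covered, as each 2-unit form reads the same on the other strand and the 3-unit forms turn into each other, and every 3-unit match holds 2-unit matches. The 3-unit form was present in 7 of 31 member windows (22.6%) and in 0.736% of all 27457 windows, and the 2-unit form in 17 (54.8%) and 15.4%. Heat shock genes are known for this element, so the excess describes the list and not the response. Among members with a window, the 3-unit form was in 4 of 8 that rose, 0 of 2 that fell and 3 of 17 that did not pass. The 4 include Hspd1 and Hspe1, whose overlapping windows hold the same run. The 2-unit form was in 7 of 8 that rose, 2 of 2 that fell and 6 of 17 that did not pass.

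The windows of 7 members are shown because they set members that moved beside members that did not, with the heat shock element matches in capitals (3-unit matches where there are any, otherwise 2-unit matches). Hsph1 (chr12:10427118-10427417, plus strand), Dnaja1 (chr5:60638154-60638453, plus strand) and Hspd1 (chr9:64083988-64084287, minus strand) rose and hold 3-unit matches. The capitals in Hspd1 are 2 overlapping matches, and this window shares 211 bases with that of Hspe1, which reads the other strand and holds the same run.
Hsph1: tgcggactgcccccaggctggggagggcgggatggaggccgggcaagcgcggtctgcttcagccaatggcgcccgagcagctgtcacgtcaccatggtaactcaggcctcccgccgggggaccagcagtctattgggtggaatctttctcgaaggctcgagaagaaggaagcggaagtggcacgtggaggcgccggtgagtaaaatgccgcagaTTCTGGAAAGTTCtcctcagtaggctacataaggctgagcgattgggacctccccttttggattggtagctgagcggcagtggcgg
Dnaja1: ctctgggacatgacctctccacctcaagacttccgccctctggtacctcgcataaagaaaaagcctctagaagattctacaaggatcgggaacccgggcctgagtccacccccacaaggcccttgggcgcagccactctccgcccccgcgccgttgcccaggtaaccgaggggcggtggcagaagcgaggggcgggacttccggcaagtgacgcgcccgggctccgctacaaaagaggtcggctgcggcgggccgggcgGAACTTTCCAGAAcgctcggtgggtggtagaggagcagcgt
Hspd1: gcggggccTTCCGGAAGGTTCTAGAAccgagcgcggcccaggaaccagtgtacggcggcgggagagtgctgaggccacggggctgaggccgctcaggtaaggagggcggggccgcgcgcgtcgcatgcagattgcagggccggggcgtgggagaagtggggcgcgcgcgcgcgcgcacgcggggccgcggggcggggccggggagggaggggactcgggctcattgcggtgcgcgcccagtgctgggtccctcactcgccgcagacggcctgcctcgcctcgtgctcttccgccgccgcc
Stip1 (chr1:213657605-213657904, minus strand) and Ahsa1 (chr6:112644233-112644532, plus strand) had the biggest rises among the members. Their windows hold a single exact 2-unit match and no exact match.
Stip1: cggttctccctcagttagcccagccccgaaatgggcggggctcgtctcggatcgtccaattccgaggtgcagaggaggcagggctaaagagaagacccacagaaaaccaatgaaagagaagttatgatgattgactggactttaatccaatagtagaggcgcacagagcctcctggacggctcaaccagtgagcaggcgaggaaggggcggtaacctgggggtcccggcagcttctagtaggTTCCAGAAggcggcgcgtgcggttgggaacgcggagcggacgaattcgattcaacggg
Ahsa1: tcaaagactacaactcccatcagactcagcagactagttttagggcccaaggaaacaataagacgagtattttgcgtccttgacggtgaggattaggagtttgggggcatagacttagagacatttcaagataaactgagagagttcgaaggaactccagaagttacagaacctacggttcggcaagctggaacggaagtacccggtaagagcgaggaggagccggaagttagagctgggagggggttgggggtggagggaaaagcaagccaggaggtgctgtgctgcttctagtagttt
Bag3 (chr1:192533210-192533509, plus strand) fell with a single 2-unit match, and Hspa8 (chr8:50080264-50080563, plus strand) did not pass with 2 separate 3-unit matches.
Bag3: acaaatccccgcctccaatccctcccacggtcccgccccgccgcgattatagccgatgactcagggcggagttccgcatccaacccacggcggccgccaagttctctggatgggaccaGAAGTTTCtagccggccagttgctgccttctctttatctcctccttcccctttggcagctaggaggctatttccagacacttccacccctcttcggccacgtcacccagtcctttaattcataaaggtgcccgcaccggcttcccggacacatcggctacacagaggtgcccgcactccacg
Hspa8: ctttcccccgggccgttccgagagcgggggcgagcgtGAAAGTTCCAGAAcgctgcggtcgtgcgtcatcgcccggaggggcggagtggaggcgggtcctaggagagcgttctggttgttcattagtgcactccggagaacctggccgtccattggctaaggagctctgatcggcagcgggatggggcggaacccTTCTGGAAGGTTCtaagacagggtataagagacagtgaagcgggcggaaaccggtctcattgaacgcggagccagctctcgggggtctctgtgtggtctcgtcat
Windows with the 3-unit form belonged to members that rose and to members that did not pass, and the member with the biggest rise had no match. A link between the element and the differences was not tested. A match is a stretch of letters and not a measured binding site, and no match covers only these 300 bases. Only exact units were searched, so elements with a mismatched unit were not counted.

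Among the members, the HSP90 arm held the biggest rises. Genes outside the members rose more, in the further lists for HSP70 (Hspa14, log2 difference 0.60) and HSP90 (Rpap3, 0.66). Ahsa1 encodes AHA1, which stimulates the ATPase of HSP90 (chromosome 6, 111296417 to 111304224 on Rnor_6.0, as are all gene positions here). It stood at 53.2, 55.5 and 56.3 RPKM in DHC libraries, against 34.8, 39.4 and 39.9 RPKM in control libraries. Every DHC value lay above every control value, and the difference of 0.52 ± 0.06 (log2, SE, limma adjusted p = 0.000762) was 1.45-fold in mean RPKM. The window of Ahsa1 above holds no exact heat shock element match. Stip1 encodes HOP, the adaptor that hands clients from HSP70 to HSP90 (chromosome 1, 222274133 to 222293148). Its level was 129, 125 and 126 RPKM with DHC and 97.8, 93.1 and 98.0 RPKM in control. The groups were again fully apart, with a 1.32-fold rise (log2 difference 0.40 ± 0.04, adjusted p = 0.000396).

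The HSP90 genes themselves moved little. Hsp90ab1, the constitutive form, was the most abundant member and ranked 9 of 18286 genes by mean RPKM. It had 4681, 5053 and 5084 RPKM with DHC, against 4318, 4548 and 4683 RPKM in control, and the lowest DHC library fell just below the highest control library. Its log2 difference of 0.13 (95% interval 0.0027 to 0.26) did not pass (limma adjusted p = 0.104), and with limma-voom on recovered reads it did (0.018). In limma it also passed with replicate number as a block (0.00712) and without both libraries numbered 1 (0.0248). Hsp90aa1, the stress-inducible form, had 946, 958 and 969 RPKM with DHC and 885, 869 and 884 RPKM in control. Its groups did not overlap and it passed, at 1.09-fold (0.12 ± 0.04, adjusted p = 0.0349), but not with libraries scaled by trimmed means (0.312), with median-of-ratios factors (0.228), with no filter (0.071), with length trends taken out (0.0754), or without DHC replicate 2 (0.116) or 3 (0.105) or control replicate 2 (0.122) or 3 (0.0847). The ratio of Hsp90aa1 to Hsp90ab1 within a library was 0.202, 0.190 and 0.191 with DHC and 0.205, 0.191 and 0.189 in control.

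Among the other HSP90 cofactors, Fkbp4, the immunophilin FKBP52 of steroid receptor complexes, averaged 64.6 ± 2.29 RPKM with DHC and 58.8 ± 4.50 RPKM in control (SD, n = 3 each, limma adjusted p = 0.14). Chordc1, which encodes the HSP90-binding protein morgana, averaged 13.7 ± 0.585 RPKM with DHC and 14.1 ± 1.17 RPKM in control (adjusted p = 0.737). Ptges3l, a gene related to the HSP90 cochaperone p23, was low, with 5.50, 7.35 and 6.71 RPKM with DHC and 5.90, 4.60 and 5.40 RPKM in control (adjusted p = 0.142). None of these 3 passed, and for each the ranges of the groups overlapped. In alternative limma fits, Fkbp4 passed with replicate number as a block (0.0415) and Ptges3l without both libraries numbered 1 (0.0367). Relative to Hsp90ab1 in the same library, Ahsa1 stood at 0.0114, 0.0110 and 0.0111 with DHC and at 0.00807, 0.00866 and 0.00853 in control. This ratio needs no scaling between libraries, and the groups did not overlap.

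**Figure D2:**
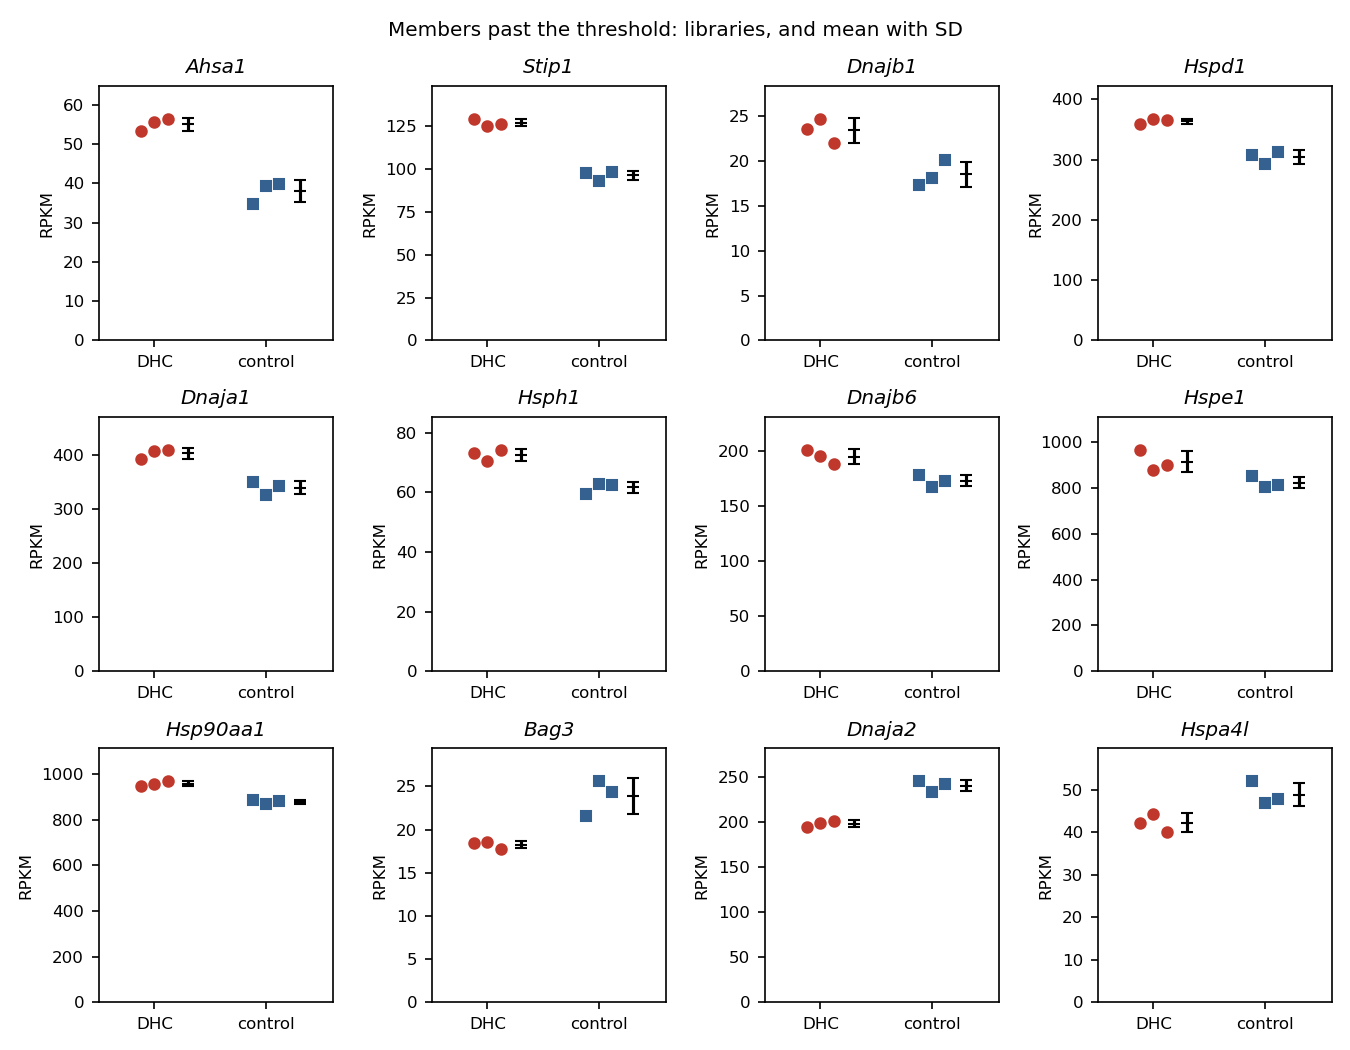
RPKM of the 12 members past the threshold in each DHC library (red circles, left) and each control library (blue squares, right), with the mean and SD in black (n = 3 each) and each axis starting at 0. The panels were picked by the test on these same values, and in all 12 the groups do not overlap, against 49.7% of all tested genes. The last 3 panels, Bag3, Dnaja2 and Hspa4l, show the genes that were lower with DHC.

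Of the cytosolic HSP70 genes among the members, Hspa8 alone was high enough to be tested, and it did not pass. Hspa8, which encodes the constitutive HSC70, had 891, 1039 and 1031 RPKM with DHC and 939, 1050 and 1069 RPKM in control. The groups overlapped and the difference was −0.05 (95% interval −0.22 to 0.13, limma adjusted p = 0.658). The row of Hspa8 joins 9 exons of 1938 bases on chromosome 8 (44990014 to 44993179) with 1 exon of 2095 bases on chromosome 5, so its value per kilobase mixes 2 places in the genome. The row named Hspa1b, a heat-inducible HSP70 gene, was low, with 81, 80 and 69 reads in DHC libraries and 40, 33 and 114 reads in control libraries. That is 1.11, 1.04 and 0.962 RPKM with DHC, against 0.533, 0.462 and 1.36 RPKM in control, a mean below the filter. With no filter it did not pass (limma adjusted p = 0.504), and since Hspa1b and Hspa1a are near-identical genes, reads of the pair may be split or lost. RefSeq also lists Hspa1b as another name of Hspa1a, so which of the pair this row measures is uncertain. Hspa1l, a form known from testis, had 2, 6 and 0 reads with DHC and 3, 0 and 2 reads in control.

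Of the 3 HSP110 genes, whose products release nucleotide from HSP70, 1 rose, 1 fell and 1 did not pass. Hsph1 encodes HSP105 (chromosome 12, 6322668 to 6341902). It had 73.2, 70.4 and 74.1 RPKM with DHC and 59.4, 62.8 and 62.6 RPKM in control, 1.18-fold higher with no overlap (log2 difference 0.23 ± 0.05, limma adjusted p = 0.00691). Hspa4l, also called APG-1, had 42.2, 44.4 and 40.0 RPKM with DHC and 52.0, 46.8 and 47.9 RPKM in control. It fell by 0.21 ± 0.06 on the log2 scale (adjusted p = 0.0345). The call ended without any 1 of 5 libraries, with adjusted p = 0.0672 without DHC replicate 1, 0.107 without DHC replicate 3, and 0.0807, 0.0503 and 0.0656 without control replicates 1, 2 and 3. It also ended without both libraries numbered 1 (0.104) and with no filter (0.0601). Hspa4, the related APG-2, had 138, 139 and 140 RPKM with DHC and 137, 133 and 132 RPKM in control (adjusted p = 0.3). Its 2 groups did not overlap, and the sign of its small difference of 0.05 turned with scaling by trimmed means. The ratio of Hsph1 to Hspa4l was 1.73, 1.58 and 1.85 with DHC and 1.14, 1.34 and 1.31 in control. These ratios had to be apart between the groups, since Hsph1 was apart upward and Hspa4l downward.

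Close relatives among the J-domain genes moved in opposite directions. Dnaja1 and Dnaja2 encode the main class A J-domain proteins of the cytosol. Dnaja1 (chromosome 5, 57028467 to 57039378) had 392, 408 and 409 RPKM with DHC and 351, 326 and 342 RPKM in control, and rose 1.19-fold (log2 difference 0.25 ± 0.04, limma adjusted p = 0.00453). Dnaja2 (chromosome 19, 22569999 to 22588137) had 194, 199 and 201 RPKM with DHC and 245, 233 and 242 RPKM in control. It fell by 0.28 ± 0.04 on the log2 scale, 1.21-fold (adjusted p = 0.00185). The groups were apart for both genes, in opposite directions. Within each library, Dnaja1 stood at 2.03, 2.05 and 2.04 times the level of Dnaja2 with DHC and at 1.43, 1.40 and 1.41 times in control. This ratio, 2.04 ± 0.0118 with DHC and 1.42 ± 0.0166 in control (SD, n = 3 each), is free of scaling between libraries, and the pairs for such ratios were picked after the values were seen. Its separation was already given by both genes being apart in opposite directions.

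The class B J-domain genes also differed among themselves. Dnajb1, which encodes HSP40, the classic partner of inducible HSP70, had 23.6, 24.7 and 22.0 RPKM with DHC and 17.4, 18.1 and 20.1 RPKM in control. It rose 1.26-fold (log2 difference 0.32 ± 0.07, limma adjusted p = 0.0119), a call that ended without both libraries numbered 1 (0.0598) and without DHC replicate 2 (0.0504). Dnajb6, which encodes a suppressor of protein aggregation, had 201, 196 and 188 RPKM with DHC and 178, 168 and 173 RPKM in control. It rose 1.13-fold (adjusted p = 0.0215), which scaling by trimmed means (0.104) or median-of-ratios factors (0.0822) ended, as did leaving out DHC replicate 1 (0.0533), DHC replicate 2 (0.0793), control replicate 2 (0.0828) or control replicate 3 (0.0593). Dnajb4, a relative of Dnajb1, had 11.0, 13.0 and 12.2 RPKM with DHC and 14.3, 13.7 and 14.1 RPKM in control. Its groups did not overlap, and its difference of −0.21 missed the threshold (0.0591). The gene passed with scaling by trimmed means (0.0258), median-of-ratios factors (0.0286), length trends taken out (0.0386) and limma-voom (0.0428).

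**Figure D3:**
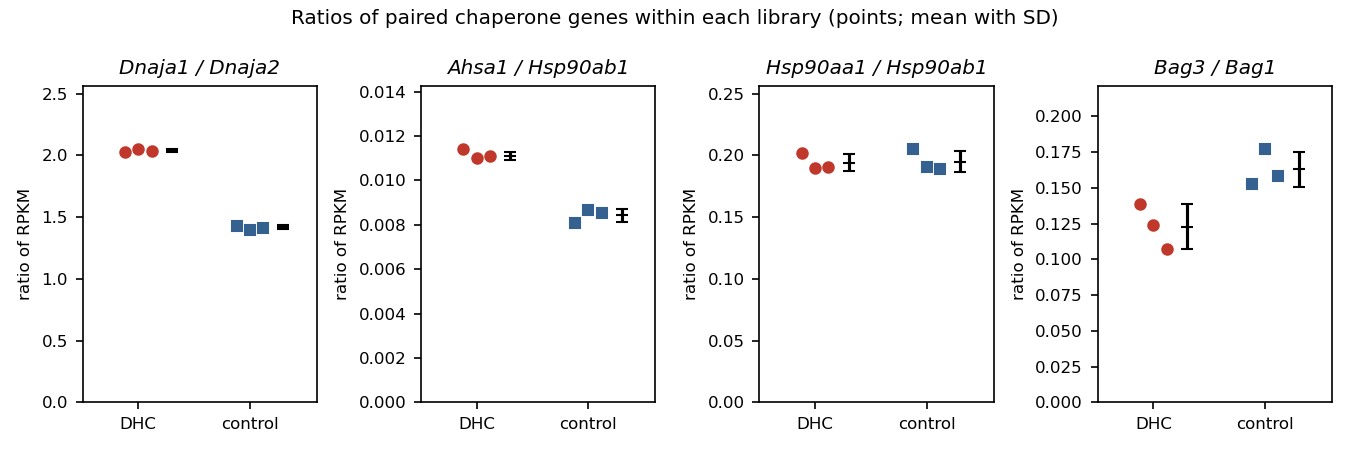
Ratios of RPKM within each library for 4 pairs of members, with DHC libraries as red circles on the left, control libraries as blue squares on the right, and the mean and SD in black (n = 3 each). The ratio of Dnaja1 to Dnaja2 is near 2.04 with DHC and 1.42 in control and that of Ahsa1 to Hsp90ab1 is also higher with DHC, while the ratio of Hsp90aa1 to Hsp90ab1 overlaps between the groups and that of Bag3 to Bag1 is lower with DHC.

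BAG proteins are a second class of release factors for HSP70. Bag3, which directs HSP70 clients to autophagy together with small heat shock proteins, fell (chromosome 1, 199941161 to 199965191). It had 18.4, 18.6 and 17.8 RPKM with DHC and 21.6, 25.6 and 24.4 RPKM in control, 1.31-fold lower with no overlap (log2 difference −0.36 ± 0.07, limma adjusted p = 0.00656). Bag1, which links HSP70 to the proteasome, ranged over 132 to 166 RPKM with DHC and 141 to 154 RPKM in control (adjusted p = 0.856). Bag2, an inhibitor of the chaperone-linked ubiquitin ligase CHIP, was low, with 2.95, 2.04 and 2.47 RPKM with DHC and 3.26, 3.76 and 2.77 RPKM in control (adjusted p = 0.131). Neither of these passed, and their groups overlapped. Of the small heat shock protein genes among the members, Hspb8 had no row and Hspb1 was close to 0. Hspb1, which encodes HSP27, had 0, 2 and 0 reads with DHC and 0, 0 and 0 reads in control, where 3 reads correspond to 0.0878 to 0.103 RPM (reads scaled by the library total alone), a limit for counting error only.

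In mitochondria, the chaperonin genes rose and the mitochondrial HSP70 gene did not pass. Hspd1 and Hspe1 encode HSP60 and its lid HSP10, and lie head to head on chromosome 9 (61680530 to 61690956 and 61692154 to 61694599). Hspd1 had 359, 367 and 365 RPKM with DHC and 308, 292 and 312 RPKM in control, 1.20-fold higher (log2 difference 0.26 ± 0.04, limma adjusted p = 0.00295). Hspe1 had 963, 877 and 899 RPKM with DHC and 850, 802 and 813 RPKM in control, 1.11-fold higher. The groups were apart for both, but Hspe1 passed only narrowly (adjusted p = 0.0481). Its exons sum to 267 bases, and a fit with length trends taken out left a difference of 0.04 (0.584). Scaling by trimmed means (0.227) or median-of-ratios factors (0.184), a filter at 0.1 RPKM (0.0642) or none (0.107), or leaving out any 1 library except control replicate 1 (0.0674 to 0.147) ended its call too. Hspa9, which encodes mortalin, had 363, 393 and 394 RPKM with DHC and 385, 387 and 407 RPKM in control (0.583). Trap1, the mitochondrial HSP90, had 22.0, 23.0 and 23.8 RPKM with DHC and 18.5, 21.4 and 20.5 RPKM in control. Its groups were apart by a narrow gap and it did not pass (0.0756), though it did with replicate number as a block (0.0396).

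None of the 7 TRiC subunit genes among the members passed limma's test, none had an unadjusted p below 0.05, and limma-voom called none. All 7 differences were positive, between 0.06 and 0.15, with a median of 0.07 against 0.05 for all tested genes. With libraries scaled by trimmed means 2 of them, Tcp1 and Cct2, turned negative and the median was 0.00045. Cct7 came nearest, with 144, 157 and 165 RPKM with DHC and 129, 144 and 147 RPKM in control (95% interval of the log2 difference −0.0084 to 0.31, adjusted p = 0.126). It passed without both libraries numbered 1 (0.0396). With replicate number as a block in limma, Cct7 (adjusted p = 0.0112) and Cct5 (0.0317) passed. For all 7 the groups overlapped, and DHC replicate 1 was the lowest of its group for 6 of 7 and control replicate 1 for 5 of 7. Over the 32 tested members, DHC replicate 1 was the lowest of its group for 22 and control replicate 1 for 15.

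TRiC holds 1 copy of each subunit in each ring, yet the transcripts stood at very different levels per kilobase. Cct5 was highest, with 438 to 534 RPKM over the 6 libraries, followed by Cct2 at 239 to 271 RPKM and Cct7 at 129 to 165 RPKM. Tcp1 lay at 105 to 118 RPKM, Cct3 at 91.9 to 104 RPKM, Cct4 at 75.9 to 83.3 RPKM and Cct8 at 57.6 to 67.2 RPKM. No 2 neighbours among these 7 overlapped in any library, and the mean of Cct5 was 7.97 times that of Cct8. Cct6a, the remaining TRiC subunit gene, is not a member and lay at 105 to 120 RPKM, overlapping Tcp1. The order of the 7 members was the same in both groups, and the ratio of Cct5 to Cct8 was 8.01 ± 0.28 with DHC and 7.96 ± 0.965 in control (SD, n = 3 each). Values per kilobase rest on the exon length given for each gene.

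**Figure D4:**
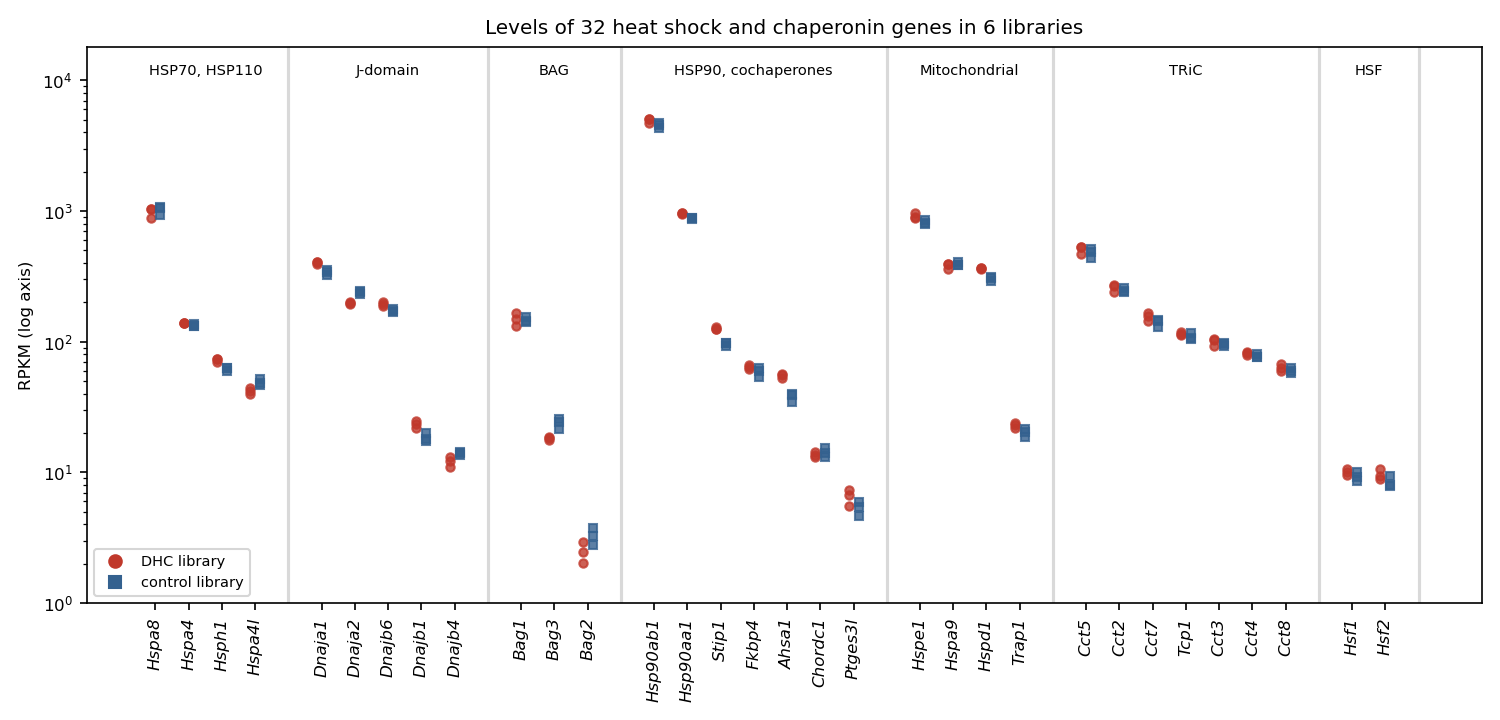
RPKM (log axis) of the 32 tested members in each DHC library (red circles, left of each pair) and each control library (blue squares), ordered by level within each role. The levels run from Hsp90ab1, at 4318 to 5084 RPKM, to Bag2, at 2.04 to 3.76 RPKM, a span far wider than any gap between the groups.

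The heat shock factor genes ranked 5727 (Hsf1) and 5933 (Hsf2) of 18286 genes by mean RPKM and did not pass. Hsf1, the main sensor of unfolded protein, had 9.59, 10.7 and 10.0 RPKM with DHC and 10.1, 9.15 and 8.54 RPKM in control (limma adjusted p = 0.307). Hsf2, a relative that pairs with it, had 8.89, 10.6 and 9.36 RPKM with DHC and 9.31, 7.93 and 7.98 RPKM in control (0.178). Neither had an unadjusted p below 0.05 and limma-voom called neither. The groups overlapped for both genes. Transcript levels do not show the activity of these factors, which is set by assembly and modification of the proteins.

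Beyond the members, 80 further chaperone and cofactor genes were listed by textbook role, of which 76 had a row and 72 were tested. Of these 14 rose and 5 fell (26.4%, against 34.5% of all tested genes), with a median difference of 0.08. Scaled by trimmed means, 9 rose and 7 fell, and the count that rose was 8 without DHC replicate 2 and 9 without control replicate 2 or 3. A group of 21 cofactors and relatives of HSP70 held 7 that rose and 2 that fell (42.9%). Hspa14, an HSP70 of the ribosome, had 62.9, 64.0 and 63.2 RPKM with DHC and 42.6, 39.0 and 42.5 RPKM in control (log2 difference 0.60 ± 0.05, limma adjusted p = 0.00014). Dnajc9, a J-domain protein that also carries histones, rose 1.43-fold (adjusted p = 0.000137), and Dnajb2, which delivers clients to the proteasome, 1.58-fold (0.00217). Dnajb12, a J-domain protein of the endoplasmic reticulum membrane, had 25.5, 24.0 and 25.1 RPKM with DHC and 44.7, 44.2 and 44.9 RPKM in control. It fell by 0.82 ± 0.05 on the log2 scale (2.7e-05), a bigger change than that of any member.

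Of 21 further HSP90 cofactors 5 rose and none fell at the limma threshold (23.8%, against 34.5% of all tested genes). Scaling by trimmed means or median-of-ratios factors gave 3 that rose and 1 that fell, no filter gave 3 that rose, and limma-voom, length trends taken out or leaving out control replicate 3 each gave 1 that fell. Without DHC replicate 2 the count that rose was 2, and without DHC replicate 3 or control replicate 1 or 3 it was 3. Rpap3, a scaffold of the R2TP complex that assembles large machines with HSP90, rose 1.73-fold but was low, with 8.14, 7.29 and 5.82 RPKM with DHC and 4.19, 4.44 and 3.64 RPKM in control (adjusted p = 0.00563). Cacybp, which binds the ubiquitin ligase Siah, rose 1.20-fold (0.0044), Tomm34, a cytosolic carrier of mitochondrial precursors, 1.24-fold (0.0148) and the phosphatase gene Ppp5c 1.21-fold (0.0249). The fifth, Tomm70, an import receptor of mitochondria named here after its value was seen, had an adjusted p = 0.0433 by limma. The Ppp5c call ended with scaling by trimmed means (0.0763) or median-of-ratios factors (0.0634), with no filter (0.0532), without both libraries numbered 1 (0.0517), and without control replicate 1 (0.0533) or 3 (0.0605) or DHC replicate 2 (0.0609) or 3 (0.0811), and the Tomm34 call without DHC replicate 2 (0.0589). Ptges3, which encodes p23, averaged 159.9 ± 1.02 RPKM with DHC and 151 ± 0.778 RPKM in control and did not pass (0.13). Cdc37, which loads kinases onto HSP90, averaged 350.4 ± 18.6 RPKM with DHC and 350.9 ± 34.7 RPKM in control (0.991).

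Of 10 listed partners of TRiC, 2 fell and none rose at the limma threshold. That is 20%, against 34.5% of all tested genes past it (16.1% lower). The 2 were Txndc9 and Pdcl3, relatives of phosducin that bind TRiC and modulate it. Txndc9 had 25.9, 31.9 and 29.0 RPKM with DHC and 42.4, 40.2 and 41.6 RPKM in control (log2 difference −0.51 ± 0.08, adjusted p = 0.00211). Pdcl3 had 78.1, 76.4 and 78.2 RPKM with DHC and 92.6, 90.0 and 89.6 RPKM in control (−0.22 ± 0.04, 0.00462). Both were apart between the groups. Cct6a averaged 114 ± 5.73 RPKM with DHC and 109.5 ± 5.22 RPKM in control (0.481). Downstream of TRiC, tubulin cofactors take over, and of 5 measured Tbcc fell and Tbca rose (40%, against 34.5% of all tested genes). Tbcc had 2.92, 2.71 and 2.08 RPKM with DHC and 6.69, 8.40 and 5.02 RPKM in control, 2.61-fold lower in mean RPKM (adjusted p = 0.00261). Tbca rose 1.17-fold (0.0129), though not without DHC replicate 2 (0.0505) or control replicate 2 (0.0507) or with length trends taken out (0.0656). The row of Tbca joins exons on chromosomes 2 and 7, so its value mixes 2 places in the genome.

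Of 12 further genes of mitochondrial protein quality, 1 passed as higher and none as lower by limma, and limma-voom also called 1. The limma share was 8.33%, against 34.5% of all tested genes. The gene past the limma threshold was Dnajc19, a J-domain gene of the import motor. It had 17.9, 17.5 and 18.6 RPKM with DHC and 16.0, 15.9 and 15.5 RPKM in control (adjusted p = 0.0399). The call did not hold without any 1 of the 6 libraries (0.0598 to 0.124), without both libraries numbered 1 (0.0754), with scaling by trimmed means (0.152) or median-of-ratios factors (0.125), or with length trends taken out (0.0662). Of 11 partners of heat shock factors and other small heat shock protein genes, 7 had a row and 3 were tested. None of these 3 passed, none had an unadjusted p below 0.05 and limma-voom called none. Without DHC replicate 2, 1 of them passed.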

How the data were processed

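Total RNA of RBL-2H3 cells (Trizol, standard Illumina library kits per the labels' protocols) was sequenced for 3 DHC and 3 control samples. Software listed in the submitters' processing notes is edgeR 3.12.1, Subread 1.5.1 with featureCounts, and Trimmomatic 0.36, with Rnor_6.0 as the build. Aligner, annotation release and strand setting were not given in the sources used here. Reads of overlapping antisense genes therefore cannot be told apart. The deposited table holds 1 RPKM value per gene and library, as found from the values, since value times exon length is a whole multiple of 1 step per column for 100% of nonzero values within 0.01 read. Whole reads and library totals of 29084976 to 34170922 were recovered from these steps. They carry no scaling beyond the total. On these reads limma-voom called 4243 genes, 2305 higher and 1938 lower with DHC.

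The 10667 genes whose mean reached 1 RPKM entered limma 3.58.1 (R 4.3.3) on log2(RPKM + 1), with a trended variance and no covariate besides group. P-values were adjusted by Benjamini-Hochberg over all of them. Fold changes in log2 understate low genes, and N-fold values divide 1 group's mean RPKM by the other's. The fit was first tested on simulated data. Members and lists were chosen with earlier results of these data known. Named genes are all members, up to 4 genes of each further list with the lowest p past the threshold, and Ptges3, Cct6a and Cdc37. Alternatives were limma-voom on recovered reads, trimmed means, median-of-ratios factors, filters, pseudocounts, robust variance, a replicate block, removal of length trends, and leaving out libraries. Genes without a row under the listed symbol and protein sequences were not analysed here. Promoter windows came from RefSeq (GRCr8), matched by symbol.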

Additional observations from a re-analysis of the deposited data

How the results depend on the processing

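Over the 17 alternative fits, the counts over all genes, members and further chaperone genes moved by more than 1.5 times as follows. Scaling by trimmed means left 1284 genes higher instead of 1968, and 9 further chaperone genes higher instead of 14, as did median-of-ratios factors (9) and removal of length trends (9). An adjusted p below 0.01 left 5 members higher instead of 9. Leaving out each library in turn gave 1195 to 1755 genes higher, 5 to 9 members higher and 8 to 12 further genes higher, each lowest without DHC replicate 2. Deviations of same-numbered libraries correlated at 0.228, −0.0495 and 0.0828, and those of differently numbered libraries at −0.183 to 0.106. Whether the replicate numbers pair the samples is therefore not settled. The replicate block gave 14 members higher and 3 lower, where 22.7% of all tested genes were higher and 17.9% lower. Signs reversed only for genes that did not pass. Under trimmed means these were Hspa4 (−0.011), Bag1 (−0.044), Tcp1 (−0.0051), Cct2 (−0.010), Cct6a (−0.012) and Cdc37 (−0.065), and under median-of-ratios factors Hspa4 (−0.0017), Bag1 (−0.034), Cct2 (−0.00043), Cct6a (−0.0028) and Cdc37 (−0.055). With length trends removed they were Bag1 (−0.026) and Cdc37 (−0.020), and without both libraries numbered 1 Cdc37 (−0.042). Leaving out 1 library put Hspa8 between −0.11 and 0.024, Hspa9 between −0.058 and 0.0016, Bag1 between −0.056 and 0.11, Chordc1 between −0.089 and 0.022 and Cdc37 between −0.082 and 0.056. The cause was not tested. With 3 libraries a group, members with 95% intervals as wide as that of Bag2 (−0.61 to 0.02) could hide changes as large as those called.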
